A study of Rattus norvegicus with 23 samples.

Results

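The growth factor families described here are the fibroblast growth factors (FGF), insulin-like growth factors (IGF), platelet-derived growth factors (PDGF), the TGF-beta superfamily with its bone morphogenetic proteins (BMP), the epidermal growth factor (EGF) and neuregulin family, and the Wnt family. Members were taken by gene symbol alone, and 74 of the 5088 array probes, standing for 66 of 4153 genes, carried such a symbol. By role, also read from the symbol, there were 48 ligand probes of 44 genes and 19 receptor probes of 16 genes. There were also 5 probes of 4 IGF binding protein genes, and 2 others, Egfl7 and Fgfr1-ps1. The ligand counts so include Bmp1, a protease, and Fgf13 and Fgf14, which act inside the cell. These are ligands by symbol only. By family there were 23 TGF-beta, 20 FGF, 11 EGF, 9 IGF, 6 PDGF and 5 Wnt probes.

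The sciatic nerve of Long-Evans rats was cut at postnatal day 20 to 24, a conditioning lesion, and lumbar dorsal root ganglia (DRG) L4 and L5 were taken 4, 8, 12, 18, 24, 48, 148 or 296 h later. Every array carried RNA from lesioned ganglia in Cy5 and from intact ganglia in Cy3, with 3 arrays a time and 2 at 296 h (23 in all). No genotype or transgene is named. The labels also call the material cultured DRG cells, they mention cAMP treatment of cultures in describing the dye labelling but only surgery as the treatment, 1 array titled 296 h has 294 h as its time, and neither the source of the intact RNA nor separate animals per array are stated.

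Ligands of the FGF, PDGF, IGF and EGF families bind receptor tyrosine kinases, TGF-beta and BMP ligands bind paired serine/threonine kinase receptors that act through Smad proteins, and Wnt ligands bind Frizzled receptors. IGF binding proteins hold IGFs outside the cell and set how much reaches the receptor. In peripheral nerve, neuregulins act through Erbb2 and Erbb3 on Schwann cells, and IGFs and FGFs are known to promote survival and neurite growth of sensory neurons.

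RefSeq promoters were on hand for 55 of the 66 genes, 59 promoters in all (assembly GRCr8), so some genes had more than 1. Each ran from 250 bases before to 50 bases after a start, which need not be the outermost annotated one. Shown are those of Tgfb2 and Tgfb3, ligands below 0 over the time course, and of Erbb2 and Erbb4, paired receptors lowest at 148 h. They lie at chr13:100792636-100792935 (Tgfb2, minus strand), chr6:111456897-111457196 (Tgfb3, minus), chr10:83907351-83907650 (Erbb2, plus) and chr9:78045557-78045856 (Erbb4, minus). The Erbb2 and Erbb4 windows open 140 and 223 bases before the annotated gene, and those of Tgfb2 and Tgfb3 lie wholly inside it. Capitals mark a GC box, GGGCGG on either strand, and no other searched motif is marked because none occurred in these sequences.
Tgfb2: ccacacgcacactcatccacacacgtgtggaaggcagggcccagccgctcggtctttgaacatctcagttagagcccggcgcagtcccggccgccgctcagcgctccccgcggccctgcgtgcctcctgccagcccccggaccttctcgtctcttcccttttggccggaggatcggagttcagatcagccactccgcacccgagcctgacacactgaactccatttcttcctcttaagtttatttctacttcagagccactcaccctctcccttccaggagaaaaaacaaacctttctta
Tgfb3: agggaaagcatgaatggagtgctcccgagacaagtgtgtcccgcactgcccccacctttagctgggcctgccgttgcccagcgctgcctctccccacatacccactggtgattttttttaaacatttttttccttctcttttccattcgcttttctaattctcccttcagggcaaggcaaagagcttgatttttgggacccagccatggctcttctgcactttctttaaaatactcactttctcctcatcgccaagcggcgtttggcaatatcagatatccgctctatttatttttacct
Erbb2: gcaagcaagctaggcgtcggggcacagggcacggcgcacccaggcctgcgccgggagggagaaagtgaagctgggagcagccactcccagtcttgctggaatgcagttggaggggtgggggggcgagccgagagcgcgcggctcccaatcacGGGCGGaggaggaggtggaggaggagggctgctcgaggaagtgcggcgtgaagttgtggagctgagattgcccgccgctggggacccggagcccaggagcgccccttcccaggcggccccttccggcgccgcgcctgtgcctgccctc
Erbb4: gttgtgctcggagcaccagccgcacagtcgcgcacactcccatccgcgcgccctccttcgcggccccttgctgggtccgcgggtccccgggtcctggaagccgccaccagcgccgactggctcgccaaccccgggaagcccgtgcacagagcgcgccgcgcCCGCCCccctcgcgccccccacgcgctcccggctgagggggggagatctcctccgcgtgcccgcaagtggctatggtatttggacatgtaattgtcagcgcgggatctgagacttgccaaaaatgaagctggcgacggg

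A GC box stood once in each of the Erbb2 and Erbb4 promoters and in neither of Tgfb2 and Tgfb3, and the G and C content was 71.3%, 70.3%, 59% and 47.7% in that order. Over the genes matched, 30 of 55 (54.5%) had a GC box, against 33.1% of all 33469 promoters of this length. A gene was counted if any of its promoters had the motif, while the share over all is per promoter. The 2 shares are therefore not of the same unit, here and for the motifs below. The other motifs searched on both strands were the cAMP response element TGACGTCA (0 of 55, 1.83% of all promoters), the AP-1 site TGANTCA (3 of 55: Bmpr1a, Fgf13 and Pdgfra; 7.33%) and the STAT site TTCNNNGAA (5 of 55, 8.87%). A match describes the letters in this window and not a site in use.

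The 17 full arrays measured 72 to 74 of the members, and the other 6 arrays, which lacked over 200 probes each (sparse arrays), measured 29 to 66. Sparse arrays were replicates 2 and 3 at 48 h, every array at 148 h and replicate 2 at 296 h. The SD of log2 ratios over all probes was 0.506 to 0.913 on full and 1.22 to 1.61 on sparse arrays, so at 148 h time and array class cannot be told apart. The deposited ratios hold no signal level, so whether markers of the tissue were present could not be read from them. In RNA from whole ganglia, fewer cells of a type and less RNA per cell cannot be told apart.

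Values below are log2 ratios of lesioned over intact. A fitted value is the mean of a time with arrays weighted by their spread, ± its standard error (SE) from limma, and adjusted p-values are Benjamini-Hochberg values over all probes tested. "Past the threshold" means an adjusted p below 0.05. Across the members the medians were close to 0 on the first day, from -0.06 at 4 h (74 probes) to -0.02 at 12 h. They were -0.16 at 48 h (68 probes), -0.21 at 148 h (48) and -0.27 at 296 h (45), times with sparse arrays and other sets of probes. The member medians of the lone full arrays at 48 and 296 h were -0.07 and -0.09. All full arrays ran from -0.18 to 0.05 and the sparse ones from -0.36 to 0.05. The medians of all probes lay between 0.00 and 0.03 at every time. No test was made of these medians.

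**Figure D1:**
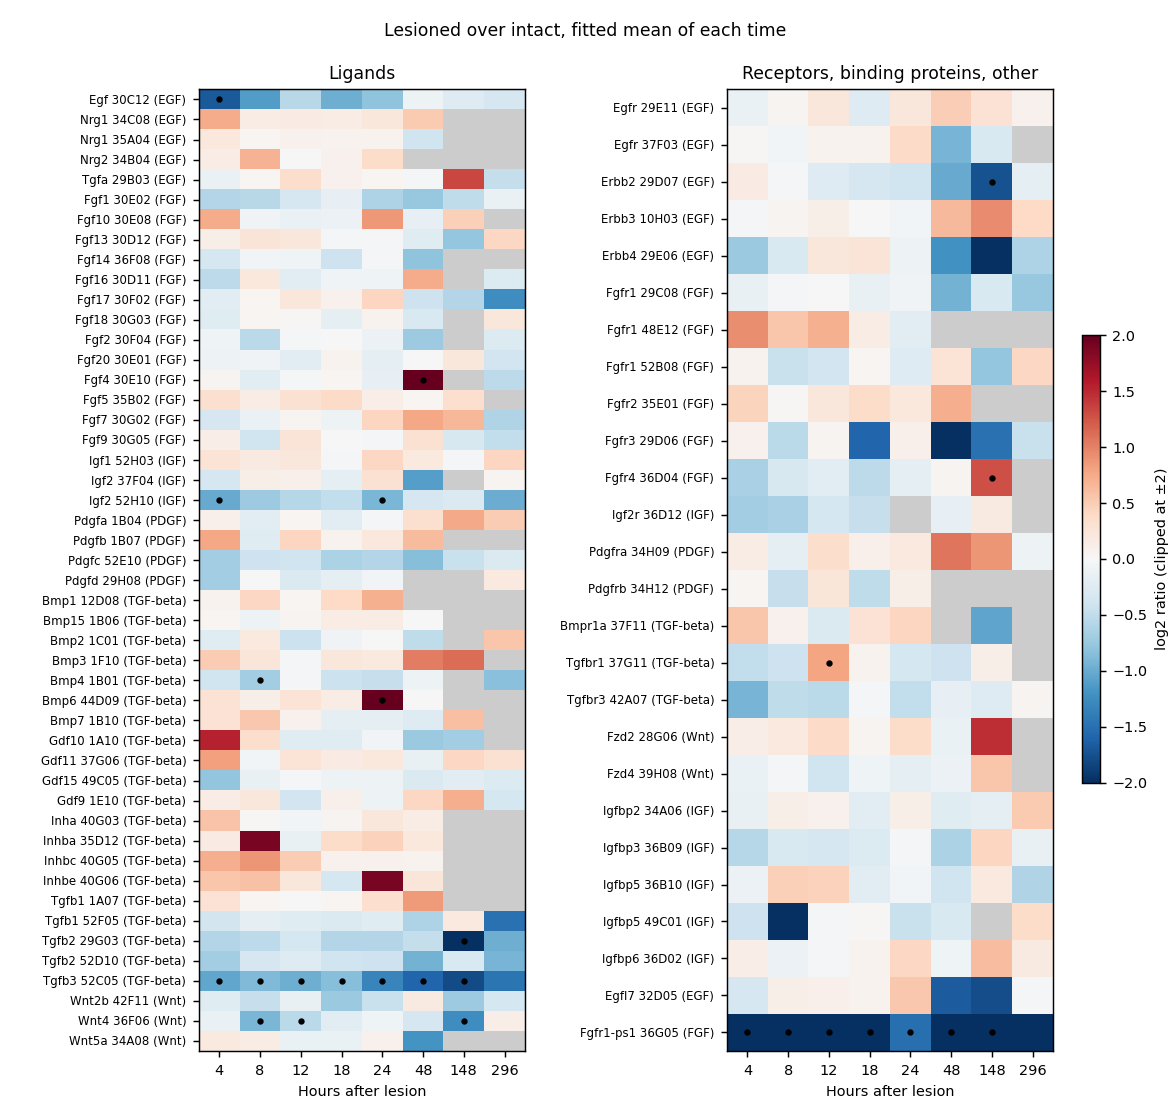
Fitted log2 ratio of lesioned over intact for each of the 74 probes (rows, with probe and family) at each time after the lesion (columns); red is higher and blue lower in lesioned ganglia, grey marks fewer than 2 measured arrays, and black dots mark values past the threshold. Most cells of the first day are pale, while Fgfr1-ps1 and Tgfb3 are blue throughout and carry dots from 4 to 148 h.

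At 4 h, 4 of 74 members were past the threshold, all lower, where 1.85% of all tested probes were. The counts were 4 of 74 at 8 h (1.26% of all), 4 of 74 at 12 h (3.61%), 2 of 74 at 18 h (2.07%) and 4 of 73 at 24 h (6.19%). At 48 h they were 3 of 68 (3.96%), at 148 h 6 of 48 (8.75%) and at 296 h 0 of 45 (0.106%). At 296 h 3 members had an unadjusted p below 0.05. Fgfr1-ps1 and Tgfb3 made up 2 of the calls at each of the 7 times from 4 to 148 h. The higher calls were Tgfbr1 at 12 h, Bmp6 at 24 h, Fgf4 at 48 h and Fgfr4 at 148 h.
These calls came from 8 probes at 4 to 24 h and 7 at 48 to 296 h. With all arrays weighted equally the numbers were 3 of 74 (1.83% of all probes tested in that window) and 25 of 70 (30.8%), against 9.59% and 8.43% of all probes with array weights.

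**Figure D2:**
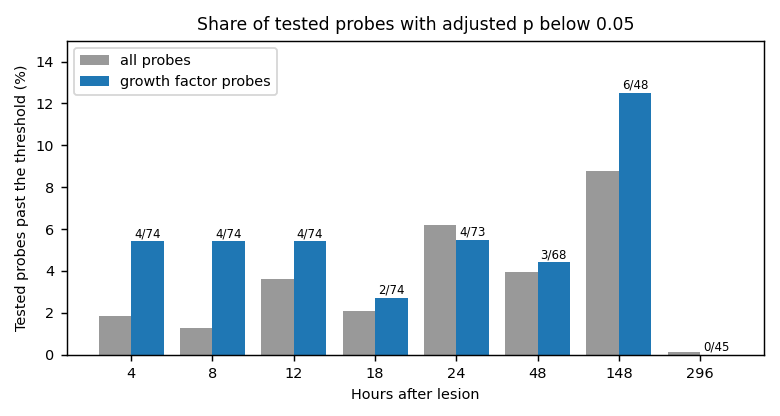
Percent of tested probes with an adjusted p below 0.05 at each time, for all probes (grey bars) and the growth factor probes (blue bars, with called over tested above each). The growth factor share runs from 0 at 296 h to 12.5% at 148 h, where all probes stand at 8.75%.

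Tgfb3, one of the TGF-beta ligands, was below 0 on all 23 arrays, with 17 full arrays from -1.51 to -0.40 and a median of -1.05. Its arrays read -1.11, -0.92 and -1.11 at 4 h, -1.51, -1.02 and -1.51 at 24 h, and -1.12, -2.16 and -1.60 at 48 h. The fitted values were -1.04 ± 0.21 at 4 h (n = 3, limma adjusted p = 0.0173), -1.32 ± 0.20 at 24 h (n = 3, limma adjusted p = 0.000762) and -1.78 ± 0.41 at 148 h (n = 3, limma adjusted p = 0.011).
The first-day arrays and the later ones overlapped, and the values at 8, 12, 18 and 48 h, from -0.86 to -1.59, were also past the threshold. Its mean over the 8 times was -1.24 ± 0.10 (2.36-fold lower, limma adjusted p = 1.1e-07).
The single-time calls rested on few arrays: without replicate 3 none of those at 4, 8, 12, 18, 24, 48 and 148 h was past the threshold (limma adjusted p from 0.125 to 0.396). At 4 to 148 h fewer of all probes were called as well when a replicate was left out. Without replicate 1, 2 or 3, 0.852%, 0.531% and 0.491% of all probes were called at 24 h, against 6.19% with all arrays. At 148 h the shares were 3.38%, 3.17% and 1.06%, against 8.75%. A call lost without a replicate, here and below, therefore does not set a member apart.

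Tgfb2, a ligand of the same group, had probes on 2 plates that were both below 0. Probe 29G03 was lower on 22 of 23 arrays and probe 52D10 on 21 of 23, with medians over the 17 full arrays of -0.54 and -0.55. Their mean effects were -0.82 ± 0.14 (limma adjusted p = 0.000241) and -0.54 ± 0.13 (limma adjusted p = 0.00277).
At 148 h the probes parted. Probe 29G03 read -1.98, -2.45 and -2.84 there (fitted -2.51 ± 0.56, n = 3, limma adjusted p = 0.00974), below each of its other 20 arrays. Probe 52D10 read -0.28, -1.30 and 0.76 (fitted -0.30 ± 0.49, n = 3), of which the last lay above all its other arrays and the others within their range.
The 148 h call on probe 29G03 was lost without replicate 1 (-2.65, limma adjusted p = 0.0558), replicate 2 (-2.41, 0.104) or replicate 3 (-2.22, 0.0917).

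Tgfb1, the ligand that gave the family its name, had probes that differed in sign. Probe 52F05 was lower on 17 of 23 arrays, with a mean effect of -0.40 ± 0.13 (limma adjusted p = 0.0161) that lost its call without replicate 2 (-0.16, limma adjusted p = 0.287). Probe 1A07 was higher on 11 of the 19 arrays that measured it and was not tested over all times.

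Of the BMP ligands, Bmp4 read -0.57, -0.73 and -0.84 at 8 h (fitted -0.69 ± 0.16, n = 3, limma adjusted p = 0.0436). Its other first-day arrays lay between -0.86 and 0.19, so the 8 h arrays overlapped with them. The call was lost without any of the replicates 1, 2 and 3 (limma adjusted p = 0.262, 0.205 and 0.254).
Bmp6 read 1.87, 3.00 and 1.09 at 24 h (fitted 1.99 ± 0.26, n = 3, limma adjusted p = 0.0005). All 16 other arrays that measured it, none of them at 148 h, lay between -0.45 and 0.43, so the 24 h arrays did not overlap with any other time. The value stayed past the threshold in every alternative that was run.

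Bmp3 was higher on 19 of 20 arrays, with a full-array median of 0.18 and a range from -0.29 to 1.13. It passed at no single time and was not tested over all times, and its mean effect was 0.46 without the filter on missing values (limma adjusted p = 0.0115) and 0.38 with full arrays only (0.00702). Bmp2, Bmp7 and Bmp15 had full-array medians of -0.23, -0.01 and 0.00, and Bmp1, a ligand by symbol only, had 0.25. Gdf15, a stress-induced member of this superfamily, was lower on 18 of 23 arrays, with a full-array median of -0.14 and a mean effect of -0.24 ± 0.12 (limma adjusted p = 0.117). Gdf9 and Gdf11 passed at no time.

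Among further ligands of this superfamily, Inhba, the activin A subunit, read 5.05, -0.70 and -0.15 at 8 h. Inhbe read 4.37, 1.80 and 0.69 at 24 h (fitted 1.90 ± 0.53, n = 3, limma adjusted p = 0.0508). Gdf10 read -0.38, -0.17 and 4.23 at 4 h. None of these was past the threshold at any time, and they were singled out after their values were seen.

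In the EGF family, Egf itself was lower on 20 of 22 arrays. It read -2.05, -0.72 and -2.29 at 4 h and -1.57, -0.44 and -1.17 at 8 h, and its arrays at 48 h read -0.48, -0.52 and 1.69. The fitted value at 4 h was -1.69 ± 0.32 (n = 3, limma adjusted p = 0.0131), and the mean effect was -0.73 ± 0.16 (limma adjusted p = 0.00183).
The lowest arrays were those of the first hours, although 1 array of 4 h lay within the range of later ones. The 4 h call was lost without replicate 1 (limma adjusted p = 0.149), replicate 2 (0.0887) or replicate 3 (0.306).
The 2 probes of Nrg1, the neuregulin 1 gene, and that of Nrg2 passed at no time, and their medians over the full arrays were 0.22, 0.05 and 0.10. Tgfa, another ligand of the EGF receptor, had a mean effect of 0.15 and passed at no time.

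Among the FGF ligands, Fgf1 (acidic FGF) was lower on all 17 full arrays, from -1.03 to -0.04 with a median of -0.50, and on 3 of the 6 sparse ones. Its mean effect was -0.46 ± 0.10 (limma adjusted p = 0.00155), although no single time was past the threshold. Fgf2 (basic FGF) had values on both sides of 0, from -1.96 to 0.75 on the full arrays, with a median of -0.13.
Fgf4 read 3.09 and 0.71 on the 2 arrays that measured it at 48 h (fitted 2.01 ± 0.50, limma adjusted p = 0.037), and 1.62 on the single one at 148 h. On the 15 arrays of the first day it lay between -0.80 and 0.40, below both arrays of 48 h. Without replicate 3 the 48 h value was 1.90 (limma adjusted p = 0.121).
The remaining 10 FGF ligand probes, among them Fgf13 and Fgf14 by symbol only, passed at no time. Their medians over the full arrays ran from -0.17 for Fgf17 to 0.19 for Fgf5, and Fgf7, a ligand made by connective tissue cells, ran from -1.14 to 1.58 on those arrays.

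**Figure D3:**
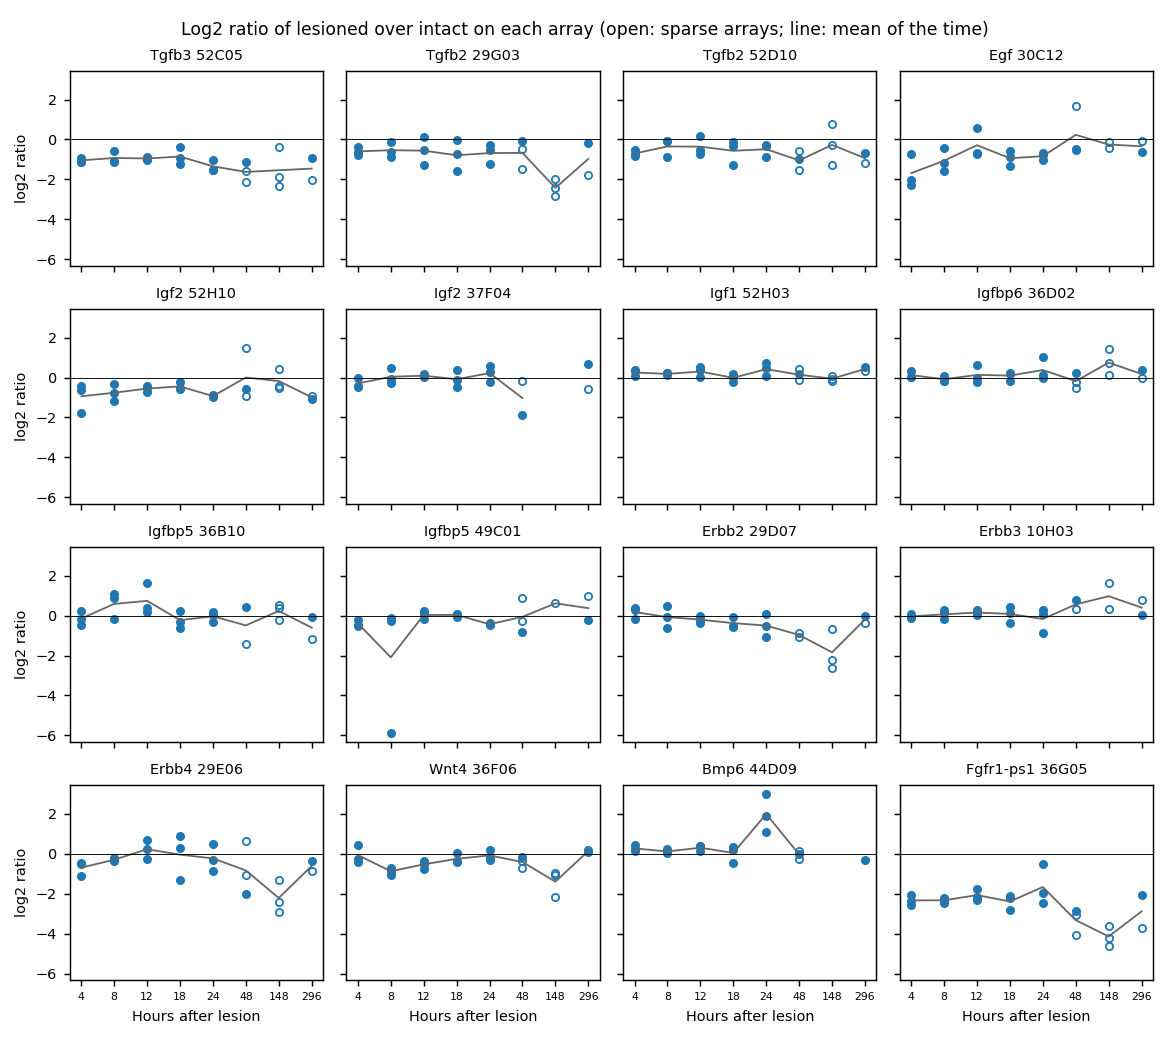
Log2 ratio of lesioned over intact on each array for 16 probes (filled points, full arrays; open points, sparse arrays; line, plain mean of the time) at each of the 8 times. Tgfb3 stayed below 0 on all 23 arrays, Bmp6 left the range of its other arrays at 24 h (1.09 to 3.00), and 1 array of Igfbp5 probe 49C01 at 8 h stood at -5.87.

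Of the IGF ligands, Igf1 was higher on 19 of 23 arrays by a small amount. Its full arrays ran from -0.22 to 0.72 with a median of 0.22, and the mean effect was 0.21 ± 0.07 (1.16-fold higher, limma adjusted p = 0.0335). Leaving out replicate 1 (0.19, limma adjusted p = 0.169) or replicate 3 (0.19, 0.132) ended the call.
Igf2 had probes that differed. Probe 52H10 was lower on 21 of 23 arrays, with a mean effect of -0.67 ± 0.12 (limma adjusted p = 0.000276). It read -0.65, -0.40 and -1.77 at 4 h (fitted -1.01 ± 0.24, n = 3, limma adjusted p = 0.0423) and -0.98, -0.92 and -0.89 at 24 h (fitted -0.92 ± 0.22, n = 3, limma adjusted p = 0.02).
Probe 37F04 of the same gene was lower on 11 of 19 arrays, with a median of -0.01 on the full arrays, and read -0.21, 0.29 and 0.58 at 24 h. At 24 h the arrays of the probes did not overlap, and the mean of both was not past the threshold (-0.31, limma adjusted p = 0.474). Both single-time calls of probe 52H10 were lost without replicate 1 (limma adjusted p = 0.265 at 4 h and 0.206 at 24 h), replicate 2 (0.233 and 0.197) or replicate 3 (0.362 and 0.0793).

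Among the PDGF ligands, Pdgfc was lower on 21 of 22 arrays. Its mean effect was -0.54 ± 0.15 (limma adjusted p = 0.00852), and no single time was past the threshold. Pdgfa, Pdgfb and Pdgfd passed at no time, and the mean effect of Pdgfa was 0.15.
Of the Wnt ligands, Wnt4 read -1.07, -0.85 and -0.71 at 8 h (fitted -0.91 ± 0.16, n = 3, limma adjusted p = 0.00512). It read -0.50, -0.75 and -0.34 at 12 h (fitted -0.54 ± 0.14, n = 3, limma adjusted p = 0.0303) and -2.17, -1.05 and -0.98 at 148 h (fitted -1.25 ± 0.34, n = 3, limma adjusted p = 0.0306).
Between these times the 24 h arrays read -0.14, 0.20 and -0.31, above all arrays of 8, 12 and 148 h. Each of the calls at 8, 12 and 148 h was lost without replicate 1 (limma adjusted p = 0.221, 0.102 and 0.187), replicate 2 (0.156, 0.589 and 0.0901) or replicate 3 (0.0985, 0.441 and 0.111). The mean effects of Wnt4 and Wnt2b were -0.41 ± 0.09 (limma adjusted p = 0.00118) and -0.37 ± 0.14 (limma adjusted p = 0.0423), the latter lost without replicate 2 (-0.32, limma adjusted p = 0.135). Wnt5a, a ligand of non-canonical Wnt signalling, passed at no time.

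Of the receptors, those for neuregulins had values on both sides of 0 at late times. Erbb2, the receptor partner without a ligand of its own, read -2.21, -0.67 and -2.64 at 148 h (fitted -1.73 ± 0.45, n = 3, limma adjusted p = 0.0254). At 4 h it read 0.40, -0.17 and 0.31, above all 3 arrays of 148 h and both measured arrays of 48 h (-1.08 and -0.86). The 24 h arrays read -1.05, -0.51 and 0.07, of which the first overlapped with those of 148 h. At 296 h it read -0.02 and -0.36. The 148 h call was lost without replicate 1 (-1.65, limma adjusted p = 0.147) or replicate 3 (-1.44, 0.188).
Erbb4, a neuregulin receptor with its own kinase, read -2.42, -1.31 and -2.92 at 148 h (fitted -2.15 ± 0.68, n = 3, limma adjusted p = 0.0575). Of its other 20 arrays, 1 at 48 h (-2.04) lay below the highest of these and overlapped with them. The mean effects of Erbb2 and Erbb4 were -0.47 ± 0.12 (limma adjusted p = 0.00611) and -0.58 ± 0.18 (limma adjusted p = 0.0137). That of Erbb4 was not past the threshold without replicate 1 (-0.53, limma adjusted p = 0.109).
Erbb3, the neuregulin receptor of Schwann cells, read 0.77 and 0.35 at 48 h, 0.32 and 1.62 at 148 h, and 0.01 and 0.79 at 296 h, against -0.19 to 0.28 over 4 to 12 h. Its late minus early difference, the mean of 48, 148 and 296 h minus that of 4, 8 and 12 h, was 0.62 ± 0.28 (limma adjusted p = 0.215). Of the late arrays only that of 296 h at 0.01 overlapped the early ones. For Egfr, the EGF receptor, probe 29E11 was higher on 17 of 23 arrays with a mean effect of 0.13 and probe 37F03 had a full-array median of 0.00. Neither passed at any time.

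Among the FGF receptors, Fgfr3 had a mean effect of -0.93 ± 0.36 (limma adjusted p = 0.0474) on widely spread arrays. Its full arrays had a median of -0.11 but included -6.20 at 48 h and -3.66 at 18 h. Leaving out replicate 3 gave -1.03 (limma adjusted p = 0.107), and scaling the arrays to an equal spread gave -0.71 (limma adjusted p = 0.0843).
Fgfr4 read 1.47, 1.22 and 1.24 at 148 h (fitted 1.28 ± 0.36, n = 3, limma adjusted p = 0.0373). On the 17 full arrays it lay between -0.84 and 0.02, so the groups did not overlap, and among the sparse arrays of 48 h it read 0.13 and 1.54. The call was lost without replicate 1 (limma adjusted p = 0.16), replicate 2 (0.196) or replicate 3 (0.12), and with the replicate block (0.0594). It stood sixth by adjusted p at 148 h and was named although the rule took 5.
The 3 probes of Fgfr1, the main FGF receptor of the nervous system, had full-array medians of -0.05, 0.42 and -0.20 (probes 29C08, 48E12 and 52B08) and passed at no time. Fgfr2 also passed at no time, and its full-array median was 0.26.

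Tgfbr1, the type I TGF-beta receptor, read 0.82, 0.67 and 0.91 at 12 h (fitted 0.80 ± 0.18, n = 3, limma adjusted p = 0.019). Its arrays at 8 h read -0.45, -0.32 and -0.45, and those at 18 h -0.24, 0.26 and 0.27, so neither neighbouring time overlapped. The call was lost without replicate 2 (0.87, limma adjusted p = 0.381) or replicate 3 (0.74, 0.567). Tgfbr3 (betaglycan) and Bmpr1a, a type I BMP receptor, passed at no time.

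Pdgfra, the PDGF receptor alpha of fibroblast-like cells, was higher on 15 of 22 arrays, with a mean effect of 0.31 ± 0.09 (limma adjusted p = 0.0133). It read 1.44, 0.70 and 0.95 at 48 h and 1.13 and 0.61 at 148 h, and -0.06 and -0.16 at 296 h. These 48 and 148 h arrays overlapped with the earlier ones only through 1 array of 12 h at 0.998. No single time was past the threshold (limma adjusted p = 0.0527 at 48 h).
Igf2r, which clears IGF2 from the cell surface, was lower on all 15 full arrays that measured it, from -1.12 to -0.16, and read 2.95 on 1 sparse array at 48 h. Its full-array median was -0.50, and the median mean effect of all tested probes on its plate, 36, was also -0.50. Igf2r was not past the threshold at any time. The Wnt receptors Fzd2 and Fzd4 were not either, with full-array medians of 0.35 and -0.08, nor was Pdgfrb, the PDGF receptor of mural cells, at -0.26.

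No IGF binding protein probe passed at any time. Igfbp5, a marker gene for this group and a secreted IGF binding protein, had probes on 2 plates. Probe 36B10 read -0.16, 0.86 and 1.06 at 8 h and 1.65, 0.38 and 0.19 at 12 h, and its mean effect was -0.03 ± 0.15. It lay on plate 36, and with the plate's median subtracted on each array the mean effect was 0.40 ± 0.15 (limma adjusted p = 0.055). Probe 49C01 read -0.13, -5.87 and -0.26 at 8 h, and its other full arrays lay between -0.84 and 0.22.
Igfbp2, Igfbp3 and Igfbp6 had mean effects of 0.01, -0.23 and 0.15, none past the threshold, although that of Igfbp3 was after the arrays were scaled to an equal spread (-0.29, limma adjusted p = 0.0162). For Igfbp6 the 148 h arrays read 1.43, 0.71 and 0.10 and overlapped with those of the first day.

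The probes outside these roles had unlike values. Fgfr1-ps1, annotated as a pseudogene of Fgfr1, was below 0 on all 23 arrays and had the lowest mean effect of the members, -2.59 ± 0.14 (6.02-fold lower, limma adjusted p = 2.03e-10). Its full arrays ran from -2.87 to -0.53 with a median of -2.24, and the 148 h arrays read -4.62, -4.21 and -3.60. It was past the threshold at every time from 4 to 148 h and not at 296 h (-2.89 ± 0.64, limma adjusted p = 0.0801). Without replicate 2 the values at 4, 12, 24 and 48 h were not (limma adjusted p = 0.0673, 0.163, 0.111 and 0.0774), nor without replicate 1 those at 24 and 48 h (0.0847 and 0.0567). The 3 probes of Fgfr1 itself passed at no single time, and whether the pseudogene probe also binds Fgfr1 RNA was not tested.
Egfl7, a secreted protein of endothelial cells, read -0.62, -2.99 and -1.56 at 48 h and -0.45, -2.27 and -1.94 at 148 h. Its late minus early difference was -1.12 ± 0.52 (limma adjusted p = 0.218). It ran from -1.87 without replicate 1 (limma adjusted p = 0.0127) to -0.08 without replicate 2 (0.978), and was 0.34 with full arrays only (0.857).

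Over all 8 times, the mean effect could be tested for 36 members, those with at least 2 arrays at every time, and not for the other 38. Of these 16 (44.4%) were past the threshold, where 40% of all 2327 tested probes were. The split by direction was 14 lower (21.5% of all probes) and 2 higher (18.5% of all probes). With full arrays only, which leaves 1 array at 48 h and at 296 h and none at 148 h, 73 members could be tested, of which 16 were lower (13.9% of all probes) and 7 higher (14.2%). The median mean effect of the 36 was -0.24, against -0.02 for all probes. With the median of each plate subtracted, described below, these medians were -0.06 and -0.02. Of the lower calls, 10 were ligands, 3 were receptors and the other was Fgfr1-ps1. The 4 tested binding protein probes had none.
No array exchanged the dyes, so a dye effect of a probe adds to its mean effect and cancels between times if it stayed constant.

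The plate of origin, read from the probe names, moved with these calls. On plates 36 and 52 the medians of the mean effect over all probes were -0.50 and -0.40, and 60.9% and 65.1% of their tested probes were called lower. These plates held 12 of the 36 tested members, of which 7 were called lower, and 7 of the 24 on other plates were. Without plates 36, 52 and 53, the last of which held no member, 18.1% of all tested probes were called lower. Of the 21 tested ligand probes, 4 were called lower after the median of the plate was subtracted on each array (17.6% of all probes). With this step, an alternative chosen after seeing the data, 9 of 36 members were past the threshold against 33.9% of all probes.
Those were Fgfr1-ps1 (-2.15), Tgfb3 (-0.88), Tgfb2 probe 29G03 (-0.71), Egf (-0.68), Erbb4 (-0.47), Fgf1 (-0.41) and Erbb2 (-0.36), lower, and Igf1 (0.57) and Igfbp6 (0.59), higher. The value of Wnt4 turned to 0.02 (limma adjusted p = 0.876). Igfbp5 probe 36B10 (0.40) and Igfbp3 (0.20), also on plate 36, turned above 0 without passing the threshold. Tgfb1 (-0.05), Pdgfc (-0.17), Tgfb2 probe 52D10 (-0.18), Wnt2b (-0.12), Igf2 (-0.31), Fgfr3 (-0.79) and Pdgfra (0.24) kept their sign and were no longer past the threshold. At single times the same step ended all calls of Wnt4 and Igf2, those of Tgfb3 at 4, 8, 18, 48 and 148 h (limma adjusted p from 0.0674 to 0.123), and those of Bmp4, Fgf4 and Erbb2 (0.0509, 0.0683 and 0.0612).

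**Figure D4:**
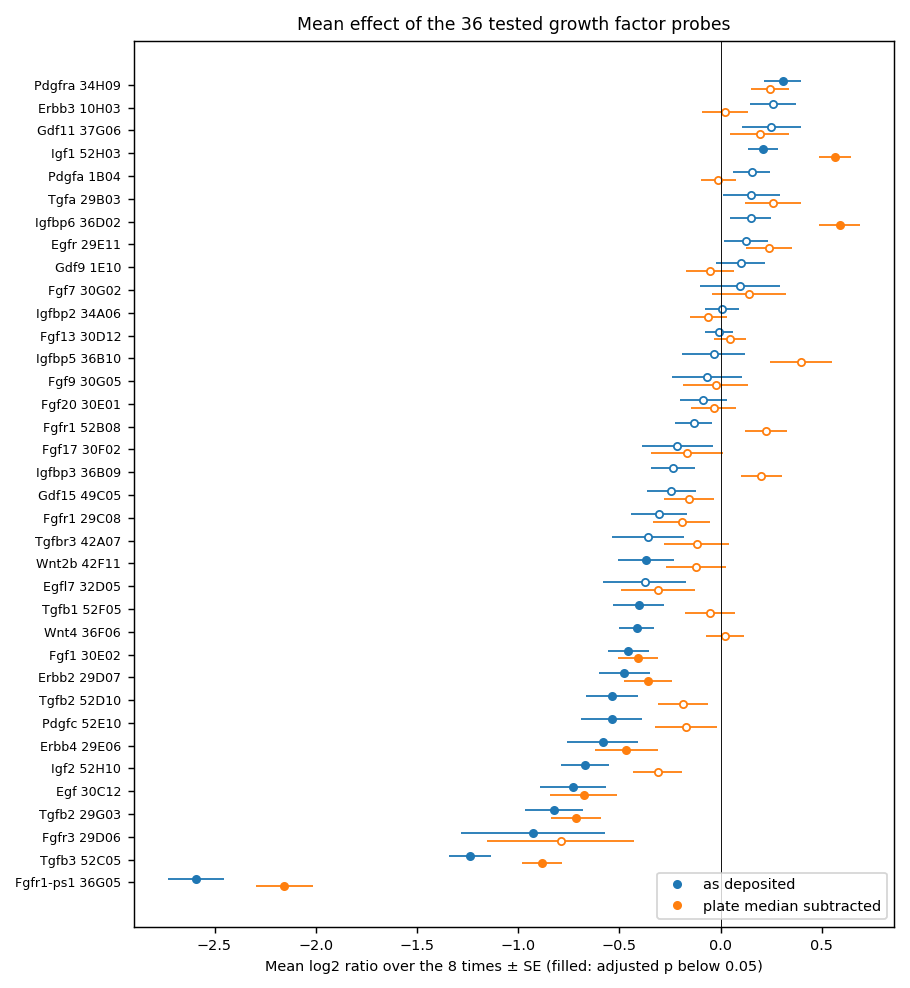
Mean log2 ratio over the 8 times ± SE for the 36 tested probes, as deposited (blue) and after the plate median was subtracted on each array (orange); filled points are past the threshold. Wnt4 moved from -0.41 to 0.02 and Igfbp6 from 0.15 to 0.59, while Fgfr1-ps1 and Tgfb3 were the lowest of the 36 either way.

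Late minus early, in which a constant dye or plate effect cancels, had 0 of 36 members past the threshold, where 4.98% of all probes were. The smallest adjusted p of a member was 0.0787 (Fgfr1-ps1, -1.09 ± 0.35, limma), a value that was 0.63 with the arrays scaled to an equal spread (0.299) and -0.19 with full arrays only (0.896). In all 11 members (30.6%) had an unadjusted p below 0.05, against 21.1% of all probes. The median difference was 0.00 for the members and 0.04 for all probes. Erbb2 had -0.93 ± 0.32 (limma adjusted p = 0.0989) and Erbb4 -1.05 ± 0.44 (limma adjusted p = 0.177). Egf had 0.88 ± 0.41 (limma adjusted p = 0.223), from -1.12 early to -0.24 late.
In an exact two-sided permutation test of each probe over its late and early arrays, 4 of 36 members were past the threshold, against 10.4% of all probes. These were Fgfr1-ps1 (plain difference -1.28, permutation adjusted p = 0.0135), Erbb2 (-1.09, 0.0294), Erbb3 (0.59, 0.0387) and Fgfr1 probe 29C08 (-0.77, 0.0424). All early arrays were full, while 6 of the 8 late ones were sparse and spread more widely. Array class can therefore enter late minus early, and both class and spread can enter the permutation test. With array class as a block, late minus early was -0.64 for Erbb2 and -1.44 for Erbb4 (limma adjusted p = 0.999 for each).
The test that the 8 time means are equal called 0 of 36 members, against 0.817% of all probes. Its smallest adjusted p among the members was 0.201 (limma), and 5 had an unadjusted p below 0.05.

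Markers of other cells moved between the same times. All 10 tested sensory neuron probes had a late minus early value below 0, and 4 were past the threshold (Calca 35C05, Nefl 52A12, Scn10a and Tac1). The other probes of Calca and Nefl were not (limma adjusted p = 0.079 and 0.277). The list median was 0.04 early and -0.53 late. Of all 2327 tested probes, 31 were past the threshold and lower late, and 85 higher. Both tested macrophage markers, C1qb and Lyz2, were higher late, with medians of -0.34 early and 1.61 late. Of 7 tested Schwann cell probes 1 was past the threshold (Mbp, lower), and of 3 satellite glia probes 0. The part of these cells in the late values of Erbb2, Erbb3, Erbb4 and Pdgfra was not tested. Fibroblast (7), endothelial and mural (5) and skeletal muscle (1) probes had no call.

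Further genes of these pathways were taken from 5 lists, and 3 were past the threshold in late minus early, where 4.98% of all 2327 tested probes were. Of 9 tested TGF-beta and BMP modulators and further receptors, Nbl1, a secreted BMP antagonist, was lower (-0.68 ± 0.18, limma adjusted p = 0.0384). Of 10 EGF family ligands outside the rule, FGF co-receptors and receptor tyrosine kinase adaptors, Gpc1 (glypican 1, a heparan sulfate proteoglycan that binds FGFs) was higher (0.98 ± 0.26, limma adjusted p = 0.0377). Map2k1, the MAP kinase kinase MEK1 below these receptors, was lower (-1.91 ± 0.29, limma adjusted p = 0.000729). The lists of Smads and Smad targets (2 tested), Wnt modulators and effectors (9) and insulin and IGF signalling (10) had none.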

How the data were processed

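The deposited values were 2-colour ratios, 1 per probe and array, made by the authors; scanner software, background correction and normalization are not given in the sources used here. The dye labels were used to set the direction, lesioned (Cy5) over intact (Cy3), which no source states. Ratios were converted to log2 without an offset. A mean per time, with array weights, was fitted in limma (version 3.58.1, R version 4.3.3) and tested two-sided with Benjamini-Hochberg adjustment over all probes measured on at least 2 arrays of the time (at every time in the tests over several times). Of 5088 probes, 4423 carried 1 symbol, 2 several and 663 none. Entrez identifiers of all 74 members matched the RefSeq table, and no symbol changed.

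Members, lists and the naming rule were chosen with earlier results of these data known. The rule named Igfbp5, members past the threshold in late minus early or the mean effect, up to 5 members a time past it, other probes of those genes, for a family and role without any the member with the smallest p in late minus early, and up to 4 past it from each list. Alternatives were equal weights, centring, scaling, other filters, robust variance, the mean of a gene's probes, a replicate block, array class as a block, 48 h alone, full arrays only, leaving out plates or replicates, plate centring and exact permutation. The fit was tested on simulated data. Separate animals per array are not stated, so the p-values speak for the spread between these samples alone, which may be technical. No intensities were used here, and precision is limited by how many arrays a time had.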

Additional observations from a re-analysis of the deposited data

How the results depend on the processing

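The number of members called at 4 to 24 h was 8, at 48 to 296 h 7, in late minus early 0, in the mean effect 16 and in the test between times 0. With equal weights they were 3, 25, 2, 18 and 1, where 30.8% of all probes were called at 48 to 296 h, 11.3% in late minus early and 47.1% in the mean effect. With full arrays only, the lone arrays of 48 and 296 h are assumed to vary like the others, so counts of that setting are not repeated here. Without plates 36, 52 and 53, the count at 4 to 24 h was 3 of 59 members (7.11% of all probes). At 48 to 296 h it was 3 of 55 (6.94%), and in the mean effect 8 of 24 (37.1%). Plate centring, chosen after seeing the data, gave 4 of 70 at 48 to 296 h (4.99% of all probes). In the mean effect it gave 9 of 36 (33.9%), where Wnt4 turned from -0.41 to 0.02 (0.0225). The filter that every array be measured gave 10 of 21 tested members in the mean effect (46.7% of all probes). The exact permutation test gave 4 of 36 in late minus early (10.4%). Leaving out replicate 1, 2 or 3 gave 4, 3 and 2 of 74 at 4 to 24 h (2.22%, 0.813% and 0.951% of all probes). At 48 to 296 h it gave 7 of 60, 2 of 74 and 1 of 69 (18.8%, 1.31% and 1.32%). In late minus early it gave 2 of 28, 0 of 24 and 0 of 23 (8.36%, 0.533% and 0.733%). The mean effect had 14 of 28, 9 of 24 and 9 of 23 (38.4%, 30.8% and 36.4%), and the test between times 0. At 4 to 24 h, deviations from the mean of the time were correlated between arrays of different times. Pairs of the same replicate number had r from -0.134 to 0.117 (30 pairs), and pairs of different numbers from -0.128 to 0.189 (60 pairs). Later times were not checked, and low correlations on such arrays cannot tell whether the numbers pair the samples. With the replicate block the count was 6 at 4 to 24 h (8.75% of all probes) and 7 at 48 to 296 h (7.81%). Late minus early then had 0 (4%), the mean effect 16 (39.6%) and the test between times 0. Median centring and robust variance turned no called value and left each count within 1.5 times. Array class as a block and 48 h alone were run for late minus early, where each called 0. Of the named values, 10 of 16 mean effects and 23 of 27 single-time calls were lost under at least 1 alternative, and 4 late minus early values gained a call. Among late minus early values without a call, the sign differed 35 times over all alternatives. The cause was not tested. At 148 h no member could be tested with full arrays only.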
